A study of Mus musculus with 10 samples.

Results

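The genes described here are 40 components of Nodal, activin, BMP and TGF-beta signalling, taken from the RNA-seq count tables by gene symbol: ligands, antagonists, receptors, Smad proteins and the Id target genes. All 40 symbols matched 1 identifier each among the 52636 identifiers of the tables, and 34 of the 40 had enough counts to enter the test. The cells were E14 mouse embryonic stem cells, maintained with LIF, a MEK inhibitor and a GSK inhibitor and then replated without these factors in medium with retinoic acid, a vitamin A derivative that drives such cells out of pluripotency. The 2 WT libraries came from wild-type cells and the 2 CBE-KO libraries from cells without 1 CTCF binding element, a site for the chromatin-organising protein CTCF. All 4 were made after 24 h of retinoic acid at 2 µM (the label writes the unit as µm), and the series text calls its replicates biological. By its title, the study asked how the element bears on looping between nearby enhancers and the HoxA cluster as the cells differentiate. The labels do not say whether the CBE-KO cells came from 1 clone, and 6 Capture-C samples of the series were not analysed here. The element is not a gene, so the counts do not check its deletion.

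Ligands of the TGF-beta superfamily bind paired type I and type II receptor kinases. Nodal, activin and TGF-beta receptors phosphorylate Smad2 and Smad3, BMP receptors phosphorylate Smad1 and Smad5, and both classes enter the nucleus with Smad4. In mouse embryonic stem cells, BMP signalling is known for inducing Id genes, which restrain differentiation, and Nodal signalling, helped by the coreceptor encoded by Tdgf1, is known for maintaining the early epiblast and later patterning the germ layers.

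Library totals were 14108038 to 15632960 counts, and 3 counts, taken as the floor of detection, corresponded to 0.185 to 0.218 CPM. Levels are given as CPM, library-size-scaled counts with trimmed-mean (TMM) scaling factors. They are not divided by transcript length, so levels are compared between libraries and not between genes. Of 12 pluripotency markers, all tested, 6 fell in CBE-KO (Utf1, Klf4, Zfp42, Sox2, Fgf4 and Pou5f1, with log2 fold changes from -1.67 for Utf1 to -0.33 for Pou5f1) and 3 rose (Dppa5a, Tfcp2l1 and Nanog, by 0.28, 0.16 and 0.15). Their summed level was 9038 and 8786 CPM in WT and 8666 and 8852 CPM in CBE-KO, of which Dppa5a alone gave 3554 and 3439.5 CPM in WT and 4204 and 4305 CPM in CBE-KO. Of 11 tested primitive endoderm markers, 6 rose in CBE-KO and none fell, with a summed level over the 12 listed genes of 371 and 379 CPM in WT, against 405 and 408 CPM in CBE-KO. Of 10 fibroblast markers, 4 were tested, and of these Col1a1, Fbn1 and Pdgfrb rose. The sum over the 10 was 28.1 and 31.6 CPM in WT, against 46.5 and 49.3 CPM in CBE-KO, while Postn, Dcn, Lum and S100a4 had 0 counts in every library. Of 11 trophoblast markers, 8 were tested, 2 rose and 2 fell. Their sums were 111 to 120.4 CPM in WT, against 116 CPM in both CBE-KO libraries. These marker counts are at the threshold given below, which 43.1% of all tested genes passed, 21.6% as higher and 21.5% as lower. The Y-linked genes Ddx3y, Eif2s3y, Uty and Kdm5d summed to 0.821 and 0.727 CPM in WT and to 129.7 and 129 CPM in CBE-KO, so the groups differed in Y-linked expression as well as in the element, and the 2 differences cannot be told apart. The part of these markers in the results below was not tested. In bulk RNA, fewer cells expressing a gene and less RNA per cell cannot be told apart. All changes below are in RNA, and these counts do not measure protein levels, Smad phosphorylation or pathway activity.

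Of the 40 genes, 17 were higher and 8 lower in CBE-KO at an adjusted p under 0.05 (edgeR quasi-likelihood test, two-sided, Benjamini-Hochberg adjustment over all 16005 tested genes), 9 did not pass, and 6 were not tested. Over all tested genes, 43.1% passed, 21.6% as higher and 21.5% as lower. Higher genes made up 50.2% of those that passed with TMM, 44.7% in DESeq2 and 67.0% with libraries scaled by their totals alone, where the median of all genes was 0.11 and 20 of the 40 genes were higher and 7 lower. In 30 of the 34 tested genes the 2 libraries of one group lay on one side of those of the other, which was also so for 70.4% of all tested genes. Log2 ratios of 1 or more in either direction were seen for 5 of the 40 among those that passed, namely Tgfbr2, Id2, Chrd and Smad3, which were higher, and Tdgf1, which was lower. Of all tested genes, 8.64% did so. Here the log2 ratio is the log2 fold change, CBE-KO over WT, from the edgeR fit, and its median was 0.19 over the 34 tested genes and 0.01 over all tested genes. In the BMP arm, 10 of 19 genes rose, 3 fell, and the median of the 17 tested was 0.43. That arm alone holds the Id target genes. Its medians by role were 0.83 for 4 Id genes, 0.70 for 2 antagonists, 0.39 for 3 receptors and 0.28 for 2 Smads. They were -0.05 for 4 ligands, -0.28 for Bmp1 and -0.44 for Smad6. Over the alternatives the BMP median ran from 0.35 (without CBE-KO replicate 1) to 0.53 (library totals alone). In the Nodal and activin arm, 4 of 13 rose and 4 fell, and the median of the 10 tested was -0.10. The Nodal and activin median became 0.0020 when libraries were scaled by their totals alone. It was -0.01 without WT replicate 1, -0.19 without WT replicate 2, -0.18 without CBE-KO replicate 1 and -0.04 without CBE-KO replicate 2. Of the 25 genes that passed, 16 also passed in each of 11 alternative analyses and 9 missed the threshold in at least 1.

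**Figure D1:**
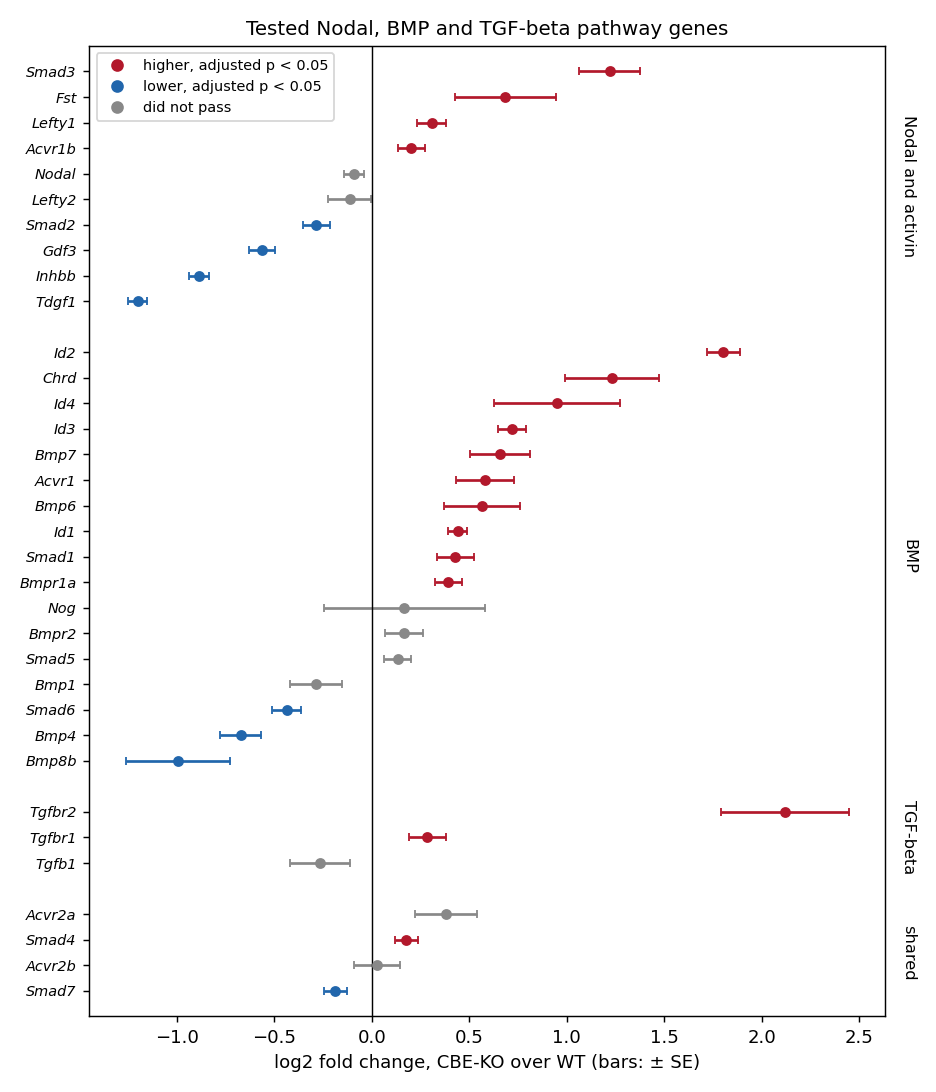
Log2 ratio (CBE-KO over WT) of the 34 tested genes, grouped by arm, with bars for ± 1 SE from edgeR and colour for the call. Tgfbr2 (2.12) and Id2 (1.80) lie farthest to the right, Tdgf1 (-1.20) farthest to the left, and all 4 Id genes lie to the right of 0.

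The Nodal and activin ligands were lower or did not pass. Nodal itself (ENSMUSG00000037171), the ligand that signals through activin receptors and Tdgf1, measured 138 and 129 CPM in WT, against 127 and 123 CPM in CBE-KO. Its groups were adjacent, and the log2 ratio of -0.09 ± 0.05 (SE; edgeR adjusted p = 0.168) did not pass. It turned to 0.01 with library totals alone, and without WT replicate 2 it was -0.14 and passed (edgeR adjusted p = 0.0454). Gdf3, a ligand that works with Nodal in the epiblast, fell from 75.1 and 83.1 CPM to 52.5 and 54.6 CPM, a log2 ratio of -0.56 ± 0.07 (SE; edgeR adjusted p = 2.88e-06). Inhbb, which encodes the beta B subunit of activin B and inhibin B, fell from 150.4 and 144 CPM to 80.9 and 78.4 CPM, a log2 ratio of -0.89 ± 0.05 (SE; edgeR adjusted p = 7.13e-10). Both CBE-KO libraries lay well below both WT libraries for Gdf3 and Inhbb, and both genes passed in every alternative. Inhba, which encodes the beta A subunit, had 0 counts in all 4 libraries. Gdf1, a Nodal partner in left-right patterning, also had 0 counts in all 4 libraries. In RefSeq its span lies over that of Cers1, which measured 8 and 19 counts in WT, against 35 and 30 in CBE-KO. It also overlaps that of Upf1, with 2018 and 2012 counts in WT, against 2035 and 1896 in CBE-KO. The treatment of reads shared by overlapping genes is not given in the sources used here.

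Tdgf1 (ENSMUSG00000032494; GRCm38.p6 chromosome 9, 110939608 to 110946158) encodes Cripto, the membrane-anchored coreceptor that lets Nodal and Gdf3 engage activin receptors. It measured 444 and 425 CPM in WT, against 189 and 189 CPM in CBE-KO. The 2 groups were far apart relative to their spread, with the CBE-KO mean at 0.435 times the WT mean. The log2 ratio was -1.20 ± 0.05 (SE; edgeR adjusted p = 3.52e-12) and ranged from -1.24 to -1.10 over the alternatives. The near-identical copy Tdgf1-ps1 measured 537 and 402 counts in WT, against 261 and 198 in CBE-KO, and reads of the gene and the copy cannot be told apart with certainty. Tdgf1 had the largest fall of the 34 tested genes, and the 250 bases upstream of its RefSeq start (chr9:110946159-110946408, minus strand, GRCm38.p6) are shown for that reason, 5′ to 3′, with the single match to CAGAC, the Smad box, in capitals:
Tdgf1: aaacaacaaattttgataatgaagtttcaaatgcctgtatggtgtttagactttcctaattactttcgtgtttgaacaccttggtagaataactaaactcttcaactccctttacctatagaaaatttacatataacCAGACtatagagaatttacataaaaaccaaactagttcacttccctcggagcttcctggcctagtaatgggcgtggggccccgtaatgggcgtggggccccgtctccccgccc

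Among the Nodal and activin antagonists, Lefty1 rose and Lefty2 did not pass. Both are secreted inhibitors that bind Nodal or its coreceptor, and both are induced by Nodal signalling. Lefty1 measured 45.3 and 45.4 CPM in WT, against 53.3 and 59.0 CPM in CBE-KO, a log2 ratio of 0.31 ± 0.07 (SE; edgeR adjusted p = 0.00242), and without CBE-KO replicate 2 it was 0.23 and missed the threshold (edgeR adjusted p = 0.0547). Lefty2 measured 26.4 and 22.1 CPM in WT, against 24.2 and 20.6 CPM in CBE-KO, with overlapping groups and a log2 ratio of -0.11 ± 0.11 (SE; edgeR adjusted p = 0.440) that became 0.02 without WT replicate 1. The 2 genes are close in sequence, so their separate counts are uncertain, and the difference between their changes was not tested. Fst, which encodes the activin-binding protein follistatin, measured 2.19 and 2.33 CPM in WT, against 3.70 and 3.57 CPM in CBE-KO, a log2 ratio of 0.69 ± 0.26 (SE; edgeR adjusted p = 0.0404). It rested on 32 to 60 counts per library and missed the threshold in DESeq2 (adjusted p = 0.227) and without any 1 of the 4 libraries (edgeR adjusted p = 0.120 and 0.0723 without WT replicates 1 and 2, and 0.169 and 0.119 without CBE-KO replicates 1 and 2). Cer1, a secreted antagonist of Nodal and BMP made in anterior endoderm, had 0 counts in all 4 libraries.

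The RNA levels of the 2 Smad genes of the Nodal and activin arm moved in opposite directions. Smad3 (chromosome 9, 63646766 to 63757994) measured 5.61 and 7.05 CPM in WT, against 15.0 and 14.5 CPM in CBE-KO, 2.33-fold higher, a log2 ratio of 1.22 ± 0.16 (SE; edgeR adjusted p = 7.36e-06). Smad2 fell from 66.1 and 60.4 CPM to 51.5 and 52.4 CPM, a log2 ratio of -0.28 ± 0.07 (SE; edgeR adjusted p = 0.00266). For both genes the groups were separate and the call was made in every alternative. Acvr1b, the type I activin and Nodal receptor ALK4, measured 57.0 and 64.3 CPM in WT, against 68.8 and 70.8 CPM in CBE-KO, a log2 ratio of 0.20 ± 0.07 (SE; edgeR adjusted p = 0.0221). This small rise missed the threshold in DESeq2 (adjusted p = 0.145), without WT replicate 1 (log2 ratio 0.12, edgeR adjusted p = 0.221) and without CBE-KO replicate 2 (0.18, edgeR adjusted p = 0.109).

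**Figure D2:**
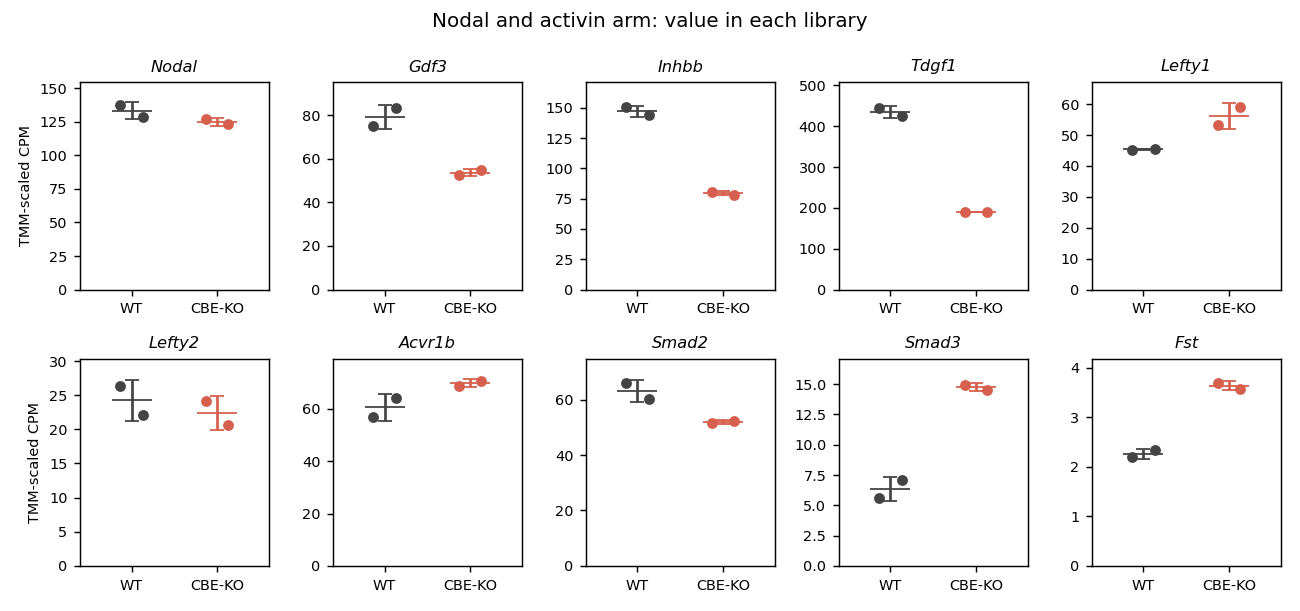
TMM-scaled CPM of the 10 tested Nodal and activin genes in each library (points), with the mean and ± 1 SD of the 2 libraries per group. Tdgf1 is near 435 CPM in WT, against 189 CPM in CBE-KO, Smad3 lies at 5.61 to 7.05 CPM against 14.5 to 15.0 CPM, and the Lefty2 groups overlap.

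The type II receptors Acvr2a and Acvr2b, which serve activin, Nodal and BMP ligands, did not pass. Acvr2a measured 8.90 and 8.43 CPM in WT, against 12.5 and 10.0 CPM in CBE-KO, a log2 ratio of 0.38 ± 0.16 (SE; edgeR adjusted p = 0.0607). It passed with upper-quartile scaling (edgeR adjusted p = 0.0397), library totals alone (0.0160), the replicate number as a block (0.0447) and without CBE-KO replicate 2 (0.0242). Its span in RefSeq overlaps that of Orc4. Acvr2b had a log2 ratio of 0.03 ± 0.12 (SE; edgeR adjusted p = 0.883), with overlapping groups. It became -0.02 without WT replicate 1 and -0.04 without CBE-KO replicate 1.

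The BMP ligands split in direction. Bmp4, the BMP ligand best known in embryonic stem cells and a mesoderm inducer in the embryo, fell from 25.0 and 26.3 CPM to 16.8 and 15.3 CPM, a log2 ratio of -0.67 ± 0.10 (SE; edgeR adjusted p = 5.49e-05). Bmp8b, a ligand that acts with Bmp4 in germ cell induction, measured 3.83 and 4.73 CPM in WT, against 2.46 and 1.79 CPM in CBE-KO, a log2 ratio of -0.996 ± 0.267 (SE; edgeR adjusted p = 0.00581). Bmp4 passed in every alternative, whereas Bmp8b was at -0.79 and missed the threshold without CBE-KO replicate 2 (edgeR adjusted p = 0.0555). Bmp8a, a near-identical copy of Bmp8b, measured 23 and 26 counts in WT, against 23 and 13 in CBE-KO, so the division of reads between them is uncertain. Bmp7 rose from 8.01 and 9.53 CPM to 12.6 and 15.1 CPM, a log2 ratio of 0.66 ± 0.15 (SE; edgeR adjusted p = 0.00213), and passed in every alternative. Bmp6 measured 5.20 and 4.80 CPM in WT, against 6.59 and 8.25 CPM in CBE-KO, a log2 ratio of 0.56 ± 0.20 (SE; edgeR adjusted p = 0.0268), which missed the threshold in DESeq2 (adjusted p = 0.147), without WT replicate 2 (0.50, edgeR adjusted p = 0.0696) and without CBE-KO replicate 2 (0.40, edgeR adjusted p = 0.244). Both CBE-KO libraries were above both WT libraries for Bmp6 and Bmp7 and below them for Bmp4 and Bmp8b. The span of Bmp6 overlaps that of Txndc5, which measured 1558 and 1456 counts in WT, against 2149 and 1971 in CBE-KO. The part of shared reads in the Bmp6 rise was not tested. Bmp2 measured 4 and 0 counts in WT, against 13 and 1 in CBE-KO, too few to test.

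Chrd encodes chordin, a secreted protein that binds BMP ligands and keeps them from their receptors. Chrd (ENSMUSG00000006958; chromosome 16, 20731425 to 20742384) measured 2.33 and 2.04 CPM in WT, against 4.99 and 5.29 CPM in CBE-KO. It was 2.36-fold higher, a log2 ratio of 1.23 ± 0.24 (SE; edgeR adjusted p = 0.000480), and passed in every alternative, although its span overlaps that of Thpo (17 and 31 counts in WT, 39 and 38 in CBE-KO). Nog, which encodes the BMP antagonist noggin, measured 12 and 20 counts in WT, against 18 and 21 in CBE-KO. Its groups overlapped, and its log2 ratio of 0.17 ± 0.41 (SE; edgeR adjusted p = 0.780) became -0.20 without WT replicate 1 and -0.03 without CBE-KO replicate 2. Grem1, which encodes the BMP antagonist gremlin, measured 6 and 3 counts in WT, against 1 and 0 in CBE-KO, and was not tested. Bmp1 is a metalloprotease that cleaves chordin and procollagens, not a BMP ligand, and measured 14.6 and 16.7 CPM in WT, against 13.7 and 11.9 CPM in CBE-KO. Its log2 ratio of -0.28 ± 0.13 (SE; edgeR adjusted p = 0.0969) passed without WT replicate 1 (-0.38, edgeR adjusted p = 0.0441) and without CBE-KO replicate 1 (-0.40, edgeR adjusted p = 0.0479).

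Of the 3 BMP receptors, the type I receptors rose. Acvr1, the receptor ALK2, rose from 8.83 and 7.78 CPM to 12.4 and 12.5 CPM, a log2 ratio of 0.58 ± 0.15 (SE; edgeR adjusted p = 0.00419). Bmpr1a, the receptor ALK3, rose from 47.4 and 47.0 CPM to 64.3 and 59.4 CPM, a log2 ratio of 0.39 ± 0.07 (SE; edgeR adjusted p = 0.000188). Groups were separate for both, and both passed in every alternative. The type II receptor Bmpr2 measured 21.6 and 24.3 CPM in WT, against 25.4 and 26.0 CPM in CBE-KO, a log2 ratio of 0.16 ± 0.10 (SE; edgeR adjusted p = 0.184) that passed with library totals alone (0.27, edgeR adjusted p = 0.0308).

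Inside the cell, Smad1, a BMP-regulated Smad, rose from 21.2 and 21.2 CPM to 29.9 and 27.0 CPM, a log2 ratio of 0.43 ± 0.09 (SE; edgeR adjusted p = 0.00136). Smad5, its close relative, measured 43.3 and 44.2 CPM in WT, against 48.4 and 47.5 CPM in CBE-KO, a log2 ratio of 0.13 ± 0.07 (SE; edgeR adjusted p = 0.146) that passed with library totals alone (0.24, edgeR adjusted p = 0.0118). Smad4, the partner of both Smad classes, measured 67.1 and 67.0 CPM in WT, against 75.0 and 76.7 CPM in CBE-KO, a log2 ratio of 0.18 ± 0.06 (SE; edgeR adjusted p = 0.0215). Smad4 missed the threshold in DESeq2 (adjusted p = 0.173) and without CBE-KO replicate 1 or 2 (edgeR adjusted p = 0.0782 and 0.146). The 2 inhibitory Smads, which are induced by the pathway and limit receptor signalling, were both lower. Smad6, which acts mainly on BMP receptors, fell from 44.9 and 45.8 CPM to 33.5 and 33.5 CPM, a log2 ratio of -0.44 ± 0.07 (SE; edgeR adjusted p = 0.000134), in every alternative. Smad7, which acts on both arms, measured 73.7 and 73.8 CPM in WT, against 65.6 and 63.9 CPM in CBE-KO, a log2 ratio of -0.19 ± 0.06 (SE; edgeR adjusted p = 0.0173). Smad7 missed the threshold in DESeq2 (adjusted p = 0.0956), with library totals alone (-0.08, edgeR adjusted p = 0.296) and without CBE-KO replicate 1 or 2 (edgeR adjusted p = 0.0616 and 0.129).

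All 4 Id genes rose. Id proteins have a helix-loop-helix domain without a DNA-binding region and hold basic helix-loop-helix factors inactive. Id1 (ENSMUSG00000042745; chromosome 2, 152736251 to 152737410) measured 171 and 170.4 CPM in WT, against 223 and 241 CPM in CBE-KO, a log2 ratio of 0.44 ± 0.05 (SE; edgeR adjusted p = 2.15e-06). Id2 (ENSMUSG00000020644; chromosome 12, 25093799 to 25096092) measured 20.6 and 24.3 CPM in WT, against 74.3 and 82.4 CPM in CBE-KO, 3.49-fold higher, a log2 ratio of 1.80 ± 0.09 (SE; edgeR adjusted p = 4.24e-11). Id3 (ENSMUSG00000007872; chromosome 4, 136143822 to 136145392) measured 37.3 and 39.6 CPM in WT, against 61.2 and 65.4 CPM in CBE-KO, a log2 ratio of 0.72 ± 0.07 (SE; edgeR adjusted p = 4.25e-07). For these 3 genes the gap between groups exceeded the gap between replicates, and each passed in every alternative. Id4 (chromosome 13, 48261116 to 48266028) was measured with 16 and 22 counts in WT, against 43 and 37 in CBE-KO. Its log2 ratio was 0.95 ± 0.32 (SE; edgeR adjusted p = 0.0250), and it missed the threshold in DESeq2 (adjusted p = 0.169), without WT replicate 1 (0.70, edgeR adjusted p = 0.173) and without CBE-KO replicate 1 or 2 (edgeR adjusted p = 0.120 and 0.0762).

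**Figure D3:**
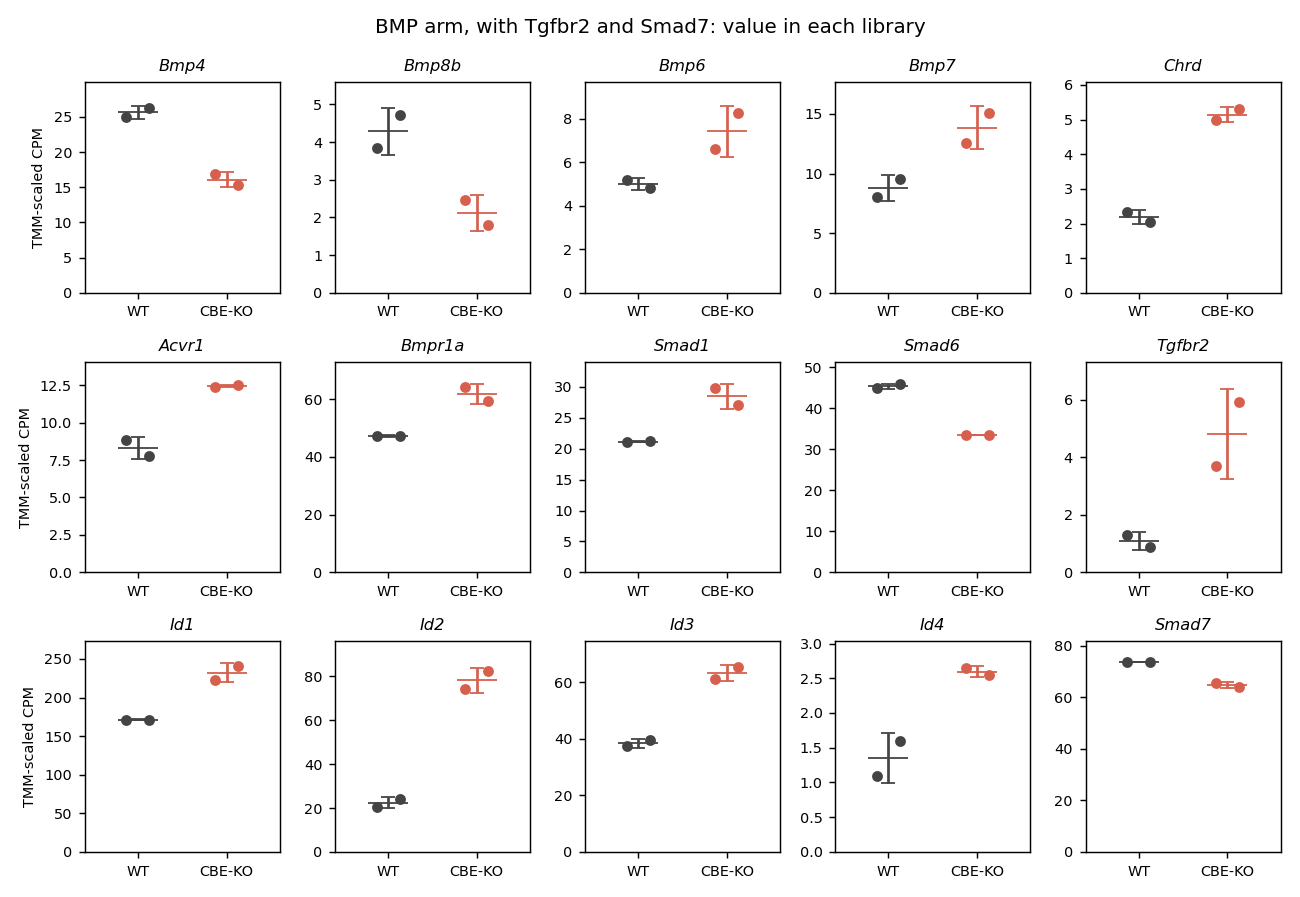
TMM-scaled CPM of 13 BMP-arm genes, Tgfbr2 and Smad7 in each library (points), with the mean and ± 1 SD of the 2 libraries per group. Only genes that passed are shown. In every panel the 2 CBE-KO points lie on one side of the 2 WT points, as in 70.4% of all tested genes. Id2 lies at 20.6 and 24.3 CPM against 74.3 and 82.4 CPM. The tested BMP-arm genes that did not pass, Nog, Bmp1, Bmpr2 and Smad5, are left out, and the Nog groups overlap.

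Because the Id genes moved together, the 250 bases upstream of the RefSeq starts of Id2 (chr12:25096093-25096342, minus strand), Id3 (chr4:136143572-136143821, plus strand) and Id4 (chr13:48260866-48261115, plus strand) are set side by side, 5′ to 3′, GRCm38.p6. Capitals mark matches to CAGAC or its other strand GTCTG, the Smad box, and to GGCGCC, a GC-rich sequence bound by BMP-regulated Smads:
Id2: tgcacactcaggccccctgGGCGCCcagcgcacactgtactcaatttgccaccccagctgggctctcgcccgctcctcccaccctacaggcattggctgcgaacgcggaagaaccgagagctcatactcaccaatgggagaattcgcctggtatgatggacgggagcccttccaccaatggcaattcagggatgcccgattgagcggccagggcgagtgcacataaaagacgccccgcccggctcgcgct
Id3: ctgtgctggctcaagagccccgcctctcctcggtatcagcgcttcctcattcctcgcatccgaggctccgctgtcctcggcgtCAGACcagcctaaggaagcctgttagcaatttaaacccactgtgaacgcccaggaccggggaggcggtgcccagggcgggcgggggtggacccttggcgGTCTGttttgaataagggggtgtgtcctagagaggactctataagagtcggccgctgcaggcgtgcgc
Id4: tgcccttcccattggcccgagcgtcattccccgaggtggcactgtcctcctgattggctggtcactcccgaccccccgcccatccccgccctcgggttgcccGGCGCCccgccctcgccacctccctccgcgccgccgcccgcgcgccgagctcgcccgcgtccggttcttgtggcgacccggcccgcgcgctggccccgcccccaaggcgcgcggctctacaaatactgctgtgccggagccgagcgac
Id2 and Id4 each held 1 GGCGCC and no CAGAC, and Id3 held a CAGAC and a GTCTG and no GGCGCC. Promoter windows were at hand for 28 of the 40 genes, 32 windows in all. None was at hand for Id1, which is why it is not shown. GGCGCC was present in 9 of the 32 (28.1%) and in 9.59% of 32817 windows of the same length over all genes, and CAGAC in 14 of the 32 (43.8%) against 42.2%. The GC content differed as well, with a median of 65.8% in the 32 windows and 52.4% in all windows, and its part in the GGCGCC share was not tested. AGGTCA, a motif of retinoic acid receptors, was in 2 of the 32 windows against 14.0% of all, and AATCCACA, the FOXH1 site, in 0 against 0.719%. Both strands were searched and no 2 of these motifs overlapped in the sequences shown. A match describes letters in the window and not a site in use.

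In the TGF-beta arm the receptors rose and the ligands did not pass or were not tested. Tgfbr2, the type II TGF-beta receptor (ENSMUSG00000032440; chromosome 9, 116087695 to 116175363), measured 19 and 12 counts in WT, against 60 and 86 in CBE-KO, or 1.30 and 0.873 CPM against 3.70 and 5.91 CPM. The CBE-KO libraries differed from each other but both lay above WT. Its log2 ratio of 2.12 ± 0.33 (SE; edgeR adjusted p = 5.06e-05) was the highest of the 34 tested genes and lay between 1.75 and 2.44 in the alternatives. Tgfbr1, the type I receptor ALK5, measured 25.6 and 26.8 CPM in WT, against 34.8 and 28.9 CPM in CBE-KO, a log2 ratio of 0.29 ± 0.10 (SE; edgeR adjusted p = 0.0234). It missed the threshold in DESeq2 (adjusted p = 0.152), without WT replicate 1 (0.25, edgeR adjusted p = 0.0824) and without CBE-KO replicate 1 (0.14, edgeR adjusted p = 0.348). The ligand Tgfb1 measured 13.3 and 11.9 CPM in WT, against 9.12 and 11.9 CPM in CBE-KO, a log2 ratio of -0.26 ± 0.15 (SE; edgeR adjusted p = 0.184) that passed only without CBE-KO replicate 2 (-0.46, edgeR adjusted p = 0.0432) among the alternatives. Tgfb2 measured 6 and 15 counts in WT, against 5 and 4 in CBE-KO and was not tested. The upstream windows of the 2 most raised genes of the TGF-beta and activin route, Tgfbr2 (chr9:116175364-116175613, minus strand) and Smad3 (chr9:63757995-63758244, minus strand), are given below. Tgfbr2 held 1 CAGAC, in capitals, and Smad3 none of the 4 motifs:
Tgfbr2: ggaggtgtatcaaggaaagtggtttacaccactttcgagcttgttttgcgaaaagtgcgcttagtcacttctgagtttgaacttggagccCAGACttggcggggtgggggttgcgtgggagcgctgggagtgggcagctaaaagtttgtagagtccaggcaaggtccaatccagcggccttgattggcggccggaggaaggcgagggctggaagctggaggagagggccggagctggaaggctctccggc
Smad3: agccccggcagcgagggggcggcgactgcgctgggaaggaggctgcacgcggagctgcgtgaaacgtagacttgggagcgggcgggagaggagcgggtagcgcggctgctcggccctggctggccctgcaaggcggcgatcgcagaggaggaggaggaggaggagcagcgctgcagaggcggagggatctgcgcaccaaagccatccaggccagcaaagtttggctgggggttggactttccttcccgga

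To set these genes beside the rest of the pathway, 88 further genes of ligands, antagonists and processing proteins, receptors, Smad regulators and target genes were listed. Of these, 65 were tested, 21 rose and 9 fell. The share of the tested genes that passed, 46.2%, was near the 43.1% of all genes, and the median log2 ratio was 0.19. By class, 1 of 9 tested ligands (19 listed) rose and 1 fell. Of 14 tested antagonists and processing proteins (21 listed), 6 rose and 3 fell. Among 7 tested receptors (10 listed), 2 rose and 1 fell, and among 23 tested Smad regulators (24 listed), 5 rose and 4 fell. Of 12 tested genes filed as targets (14 listed), 7 rose and none fell. Pathway-induced genes in other classes went both ways. Pmepa1, Smad6 and Smad7 fell, Bambi and Lefty1 rose, and Lefty2 did not pass. Over all tested genes, 21.6% rose and 21.5% fell. The target genes that rose included Tgfbi, Msx1, Msx2, Gata2 and Tfap2a. The mesendoderm genes Eomes, Tbxt and Mixl1, which Nodal induces, did not pass (log2 ratios of 0.09, -0.51 and 1.19, edgeR adjusted p = 0.633, 0.306 and 0.0545).

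Tll1, a tolloid protease that cleaves chordin, measured 3.90 and 4.73 CPM in WT, against 20.5 and 17.5 CPM in CBE-KO, a log2 ratio of 2.14 ± 0.16 (SE; edgeR adjusted p = 1.29e-08), beside the rise of its substrate Chrd given above. Tgfbi, an extracellular matrix protein induced by TGF-beta, rose from 8.56 and 7.42 CPM to 30.4 and 34.0 CPM, a log2 ratio of 2.01. The homeobox gene Msx1, a BMP target, rose by a log2 ratio of 1.20. Gata2 and Tfap2a, transcription factors induced by BMP in early ectoderm, rose by 1.04 and 0.74. Fstl1, a follistatin-like secreted glycoprotein, went from 88.7 and 94.4 CPM to 179 and 181 CPM, a log2 ratio of 0.97, and Rgma, a BMP coreceptor, from 30.1 and 32.4 CPM to 53.2 and 56.1 CPM, a log2 ratio of 0.81. Bambi, a decoy receptor without a kinase domain that BMP induces, rose by 0.77. Genes of the latent TGF-beta binding proteins moved apart. Ltbp1 rose by a log2 ratio of 0.91, and Ltbp3 fell from 28.4 and 31.0 CPM to 14.5 and 13.4 CPM, a log2 ratio of -1.08. Pmepa1, a TGF-beta target that dampens Smad signalling, fell from 81.3 and 78.7 CPM to 50.8 and 50.0 CPM, a log2 ratio of -0.67. The genes named here from Tll1 to Pmepa1 were picked because they passed, by size of change. Their separate groups are therefore no added support. Groups were also separate in 55 of the 65 tested further genes and in 70.4% of all tested genes. For the named genes, edgeR adjusted p-values ran from 6.77e-10 or lower for Tgfbi and Fstl1 to 0.0177 for Gata2.

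**Figure D4:**
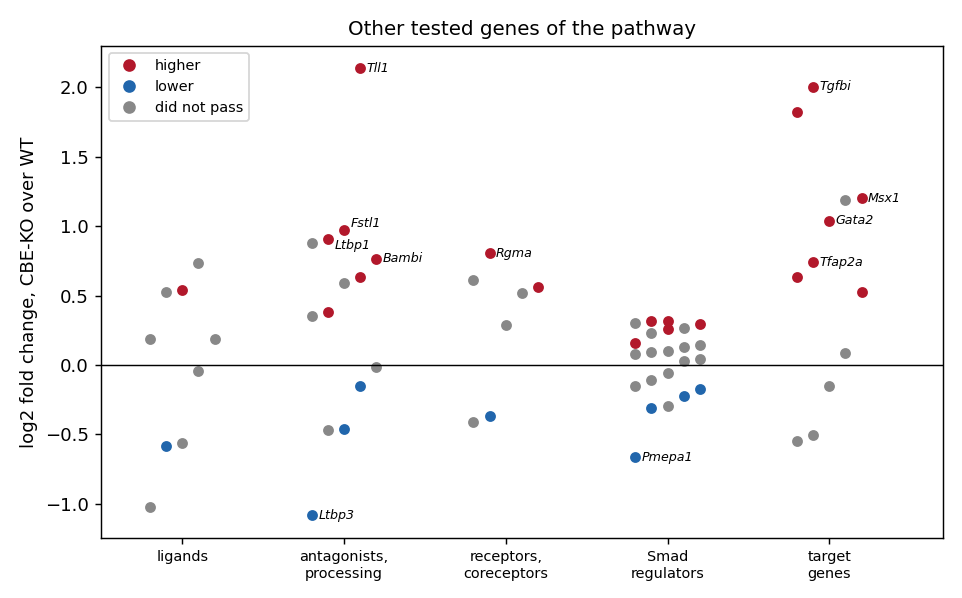
Log2 ratio (CBE-KO over WT) of the 65 tested further pathway genes by class, coloured by call, with names for the genes described. No gene of the target class is coloured as lower, but Pmepa1, a TGF-beta target that fell, is placed with the Smad regulators. Tll1 (2.14) and Ltbp3 (-1.08) mark the range among the antagonists and processing proteins.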

How the data were processed

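RNA-seq counts of 4 libraries were analysed. Each library has 1 deposited table of raw counts, whole numbers by Ensembl gene, not normalized. Per the submitters' processing notes, HISAT2 2.1.0, HTSeq 0.9.1, DESeq2 1.18.1 and Bowtie2 2.3.1 were used on build mm10, with no role stated. Use of strand, annotation release and treatment of reads shared by genes are not given in the sources used here, so 19 of the 40 genes, whose RefSeq spans overlap another gene, and near-identical copies are uncertain. Symbols came from a supplied table (52403 of 52636 identifiers). Positions and promoter windows came from RefSeq, GRCm38.p6.

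Genes were filtered with filterByExpr of edgeR 4.0.16 (R 4.3.3) at default settings, scaled by TMM and tested with the quasi-likelihood functions glmQLFit and glmQLFTest (group as the only term, two-sided p, Benjamini-Hochberg over 16005 genes) and a threshold of 0.05. SE is the absolute log2 fold change over the square root of F. Errors on CPM are SD over 2 libraries. Replicates differed by more than sampling noise (chi-square per degree of freedom 3.40 in WT and 2.70 in CBE-KO). Floors of 3 counts cover counting error only. The test was checked on simulated counts of 16005 genes with known changes. It recovered 150 of 200 genes given a log2 change of 1 (75%), with 2 calls among the unchanged genes. That check gives no rate for smaller changes. It changed only 200 of 16005 genes, whereas 43.1% of tested genes passed in the data, so its rates need not carry over.

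Alternatives were DESeq2 1.42.0, median-of-ratios, upper-quartile and library-total scaling, no filter on low counts, a filter keeping genes that average 1 CPM or more, the replicate number as a block, and leaving out each library, where the lone library of a group is assumed to vary like the other group. The genes and lists were chosen with earlier results of these data known. Named genes were all 40, and of the 88 others up to 12 that passed and averaged 1 CPM or more in their higher group, taken by size of change. Some genes that passed are not reported here. Eomes, Tbxt, Mixl1 and Msx2 were named after their values were seen.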

Additional observations from a re-analysis of the deposited data

How the results depend on the processing

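The number of genes changed, 6895, was 4577 in DESeq2, with 2047 higher in place of 3461 and 2530 lower in place of 3434, and the number of the 40 genes that rose, 17, was 11 there. The cause was not tested. The counts of the 40 genes changed, of the 40 genes lower and of further pathway genes changed stayed within 1.5 times of the edgeR values under the alternatives run. Leaving out 1 library gave 5492 to 6420 changed genes, 20 to 24 of the 40 changed, 13 to 15 higher, 7 to 9 lower, and 25 to 30 of the further pathway genes changed. Of called genes, 50.2% were higher with TMM, 44.7% in DESeq2, 48.2% with median-of-ratios factors, 55.9% with upper quartiles and 67.0% under scaling by totals. Scaling by totals shifted the all-gene median to 0.11, the Nodal and activin median from -0.10 to 0.0020 and the BMP median from 0.43 to 0.53. Nodal turned to 0.012 with library totals alone. On leaving out 1 library, Lefty2 ranged from -0.24 to 0.019 (positive without WT replicate 1), Nog from -0.20 to 0.62 (negative without WT replicate 1, and -0.030 without CBE-KO replicate 2) and Acvr2b from -0.041 to 0.087 (negative without CBE-KO replicate 1, and -0.015 without WT replicate 1). None of these genes had passed, and no gene that passed changed direction in the 11 alternatives. Adding a replicate block gave 7027 changed genes, and of the 40 genes 18 were higher and 8 lower, Acvr2a being the added one. Deviations of same-numbered libraries had a correlation of 0.037, and the labels do not say that equal numbers mark libraries prepared together. With 1 residual degree of freedom the block rests largely on the shared estimate of spread. At these depths, Bmp2, Grem1 and Tgfb2 had too few counts to test, and counts of 0 for Cer1 allow up to 0.185 to 0.218 CPM per library. For Gdf1 and Inhba, also at 0 counts, that limit covers counting error only. Their spans overlap other genes, and the treatment of shared reads is not given.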

Other observations

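Several further genes of the pathway were at or near the floor in WT and had more counts in CBE-KO, and none of them entered the test. Gdf6, a BMP-type ligand, had no counts in either WT library, against 9 and 5 in CBE-KO. This is at least 2.12-fold higher, taking a floor of 3 counts per library. Bmper, which encodes an extracellular BMP modulator, measured 2 and 1 counts in WT, against 9 and 11 in CBE-KO. Gsc, a homeobox gene induced by Nodal, measured 3 and 2 counts in WT, against 7 and 15 in CBE-KO. Dlx5, a homeobox gene induced by BMP, measured 1 and 0 counts in WT, against 13 and 4 in CBE-KO. These 4 were named after their values were seen. Oxct2b, whose RefSeq span overlaps that of Bmp8b, measured 10 and 11 counts in WT, against 1 and 2 in CBE-KO.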
